A study of Mus musculus with 9 samples.

Results

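The protein partners of small nucleolar RNAs were followed through the total RNA of oocyte compartments separated by micromanipulation: 10 genes, chosen by symbol as core or assembly proteins of box C/D and H/ACA ribonucleoproteins (snoRNPs), of 23235 gene symbols in the table. All 10 were present, and all 10 were among the 14270 genes with at least 1 FPKM (mapped fragments normalised for transcript length and library total) in at least 1 column. The groups were MTR4-null nucleus, WT nucleus, MTR4-null cytoplasm and WT cytoplasm, all from mouse oocytes at day 21, and each sample pooled 10 of them. Each group has 2 libraries in the labels except the WT nucleus, with 3. The null allele, the Cre or promoter behind it, and the strain are not given in the labels. MTR4 is the RNA helicase that hands nuclear transcripts to the exosome, the complex that trims and degrades RNA.

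Small nucleolar RNAs guide chemical marks onto other RNAs, mostly ribosomal RNA, and each acts only as a particle with proteins. A box C/D RNA binds fibrillarin (Fbl), the enzyme that methylates the ribose, together with Nop56, Nop58 and the 15.5K protein encoded by Nhp2l1 (now Snu13). An H/ACA RNA binds dyskerin (Dkc1), the enzyme that converts uridine to pseudouridine, together with Nhp2, Nop10 and Gar1. Naf1 holds the place of Gar1 while an H/ACA particle is assembled, and Nolc1 (Nopp140) is a chaperone that meets both classes in the nucleolus and Cajal bodies. In mammals most of these RNAs are cut from introns of host genes, and the exosome trims their ends.

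Some of the 10 genes are hosts themselves. By GENCODE M21, Nop56 carries 5 annotated snoRNA genes on its own strand (2 of them in the table), Nop58 carries 4 (2 in the table) and Dkc1 carries 1, which is not used here. The pair with a signal above 0 is shown because each joins a member gene to the kind of RNA its protein binds. Capitals mark the C box (TGATGA, near the 5′ end) and the D box (CTGA, near the 3′ end), the elements that the box C/D proteins recognise, searched on the RNA's own strand only. Positions are on GRCm38, the build of that annotation, and not on mm9, which the submitters' processing notes name.
Snord110, in Nop56, chr2:130275506-130275573, plus strand: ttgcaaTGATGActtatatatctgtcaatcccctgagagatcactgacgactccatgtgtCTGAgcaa
Snord11, in Nop58, chr1:59704790-59704873, plus strand: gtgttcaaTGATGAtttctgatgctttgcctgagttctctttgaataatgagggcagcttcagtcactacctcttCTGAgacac
Snord110, of 68 nt, was listed at 0 FPKM in the MTR4-null nucleus and at 1888 FPKM in the WT nucleus, and at 0 in both cytoplasms. Snord11, of 84 nt, was at 185.73 FPKM in the MTR4-null nucleus and at 0 elsewhere. Snord57, in Nop56, and Snord70, in Nop58, were listed at 0 in all 4 columns. All 4 RNAs are shorter than the cDNA of 300 to 400 bp that was selected, so these values give neither a level nor a direction that can be relied on.

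The deposited table has 1 column per group. No SD, n or p-value can be given, and every difference below is one between 2 columns with no replicate check. Differences are on the log2(FPKM + 1) scale, and a gene was counted as apart at 2-fold or more on that scale. By the labels, each sample pooled 10 oocyte nuclei or cytoplasms. Because FPKM is relative, the amount of RNA per oocyte cannot be read from these values. For transcripts of surrounding cells, fewer cells and less RNA per cell cannot be told apart.

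The core proteins of box C/D particles are described first, level by level (plot of FPKM by gene and column). Fbl was at 57.9 FPKM in the MTR4-null nucleus, 29.96 FPKM in the WT nucleus, 27.3 FPKM in the MTR4-null cytoplasm and 23.4 FPKM in the WT cytoplasm, so that the MTR4-null nucleus stood above the other columns. Nop56 was at 30.4 FPKM in the MTR4-null nucleus, 45.7 FPKM in the WT nucleus, 24.0 FPKM in the MTR4-null cytoplasm and 50.4 FPKM in the WT cytoplasm. Nop58, which pairs with Nop56 to form the scaffold of the particle, was at 19.97 FPKM in the MTR4-null nucleus, 21.8 FPKM in the WT nucleus, 13.9 FPKM in the MTR4-null cytoplasm and 32.3 FPKM in the WT cytoplasm. For both scaffold genes the MTR4-null column was the lower one in each compartment, though the nuclear values of Nop58 lay close together. Nhp2l1, whose protein binds the RNA first and also sits in the spliceosome, was the most abundant member in each column, at 67.8 FPKM in the MTR4-null nucleus, 51.5 FPKM in the WT nucleus, 61.9 FPKM in the MTR4-null cytoplasm and 80.3 FPKM in the WT cytoplasm. In the WT nucleus it was level with Dkc1.

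Among the H/ACA core genes, Dkc1 stood apart from its partners. It was at 12.2 FPKM in the MTR4-null nucleus, 51.3 FPKM in the WT nucleus, 15.6 FPKM in the MTR4-null cytoplasm and 41.2 FPKM in the WT cytoplasm, so both MTR4-null columns lay below both WT columns. Nhp2, which binds the RNA stem beside dyskerin, was at 36.8 FPKM in the MTR4-null nucleus, 29.8 FPKM in the WT nucleus, 20.9 FPKM in the MTR4-null cytoplasm and 27.9 FPKM in the WT cytoplasm. Nop10, a small linker of dyskerin and Nhp2, was at 10.2 FPKM in the MTR4-null nucleus, 14.3 FPKM in the WT nucleus, 17.9 FPKM in the MTR4-null cytoplasm and 19.6 FPKM in the WT cytoplasm. Nop10 was thus lower in each nucleus than in the cytoplasm of the same genotype. Gar1, which joins last and makes the particle active, was at 8.87 FPKM in the MTR4-null nucleus, 5.87 FPKM in the WT nucleus, 12.1 FPKM in the MTR4-null cytoplasm and 15.4 FPKM in the WT cytoplasm.

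The assembly factor Naf1 had the lowest level of the 10 genes in each column, at 2.66 FPKM in the MTR4-null nucleus, 3.42 FPKM in the WT nucleus, 3.23 FPKM in the MTR4-null cytoplasm and 3.93 FPKM in the WT cytoplasm, a span too narrow to order without replicates. Nolc1 was at 20.5 FPKM in the MTR4-null nucleus, 31.2 FPKM in the WT nucleus, 16.4 FPKM in the MTR4-null cytoplasm and 41.6 FPKM in the WT cytoplasm. Its order of columns was that of Nop56 apart from the WT pair being farther apart.

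**Figure D1:**
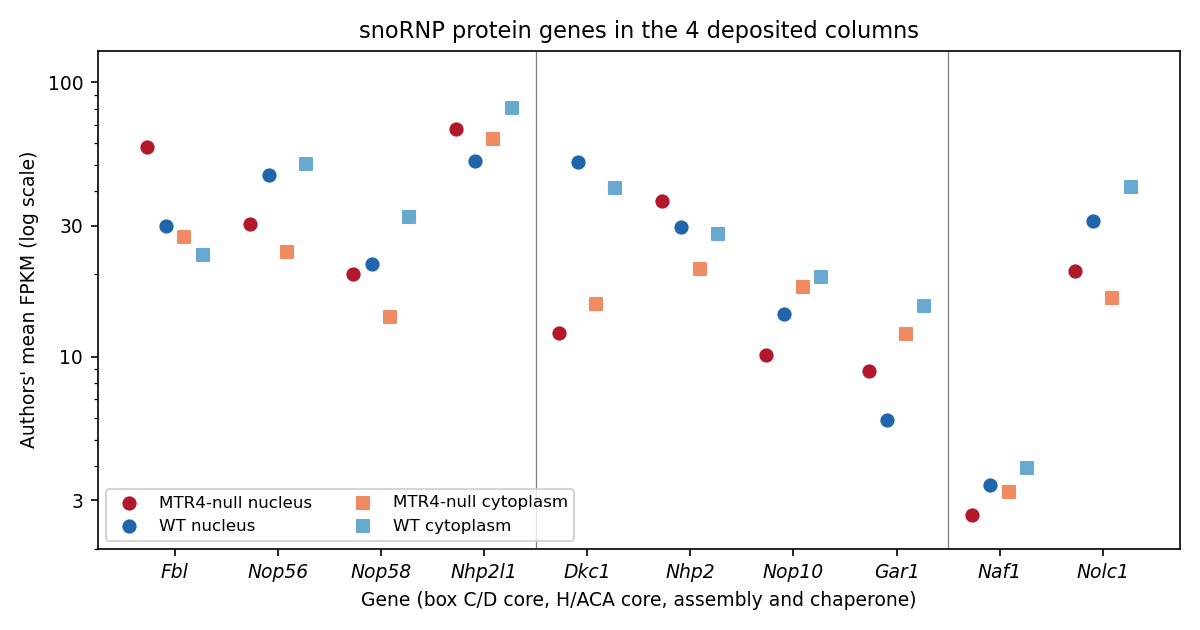
Each point is the authors' mean FPKM of 1 gene in 1 of the 4 columns, on a log axis, with circles for nuclei and squares for cytoplasms; vertical lines separate box C/D core, H/ACA core, and the assembly factor and chaperone. Dkc1 is at 12.2 and 15.6 FPKM in the MTR4-null columns against 51.3 and 41.2 FPKM in the WT columns, while Fbl is highest in the MTR4-null nucleus at 57.9 FPKM.

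The first comparison asks how the nuclear RNA of these genes differed without MTR4. Of the 10 genes, 1 passed the 2-fold line downwards, a share near the 12.3% of all 14270 genes, and 0 passed it upwards, against 23.9%. Quantile normalization evened that split over all genes, to 2416 higher and 2517 lower in place of 3417 and 1753. Dkc1, the gene past the line, fell by 1.98 on the log2 scale. Its FPKM in the MTR4-null nucleus was 23.8% of that in the WT nucleus, a 4.199-fold difference, and 2.51% of all genes had a lower difference. Omitting the filter cannot change a gene's own value. Under the other settings, of scaling and pseudocount, the value for Dkc1 lay between -2.33 and -2.06, past the 2-fold line in each.

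The other 9 genes stayed within 2-fold. Fbl was nearest to the line, at 0.93 as deposited and at 0.72 to 0.95 over the other settings, and 74.1% of all genes had a lower difference. Gar1 (0.52), Nhp2l1 (0.39) and Nhp2 (0.30) also had positive differences under every setting, while Nolc1 (-0.59), Nop56 (-0.58), Nop10 (-0.46), Naf1 (-0.27) and Nop58 (-0.12) had negative ones under every setting. The median of the 10 genes was -0.20, beside 0.21 over all genes. The list therefore did not shift as a block: 2 of 4 genes of each core class lay on either side of 0.

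Ratios within a column do not depend on how the columns are scaled to each other. Fbl over Dkc1 was 4.74 in the MTR4-null nucleus and 0.584 in the WT nucleus. Nhp2 over Dkc1 was 3.01 in the MTR4-null nucleus and 0.581 in the WT nucleus, and Gar1 over Dkc1 was 0.726 and 0.114 in the same columns. Dkc1 made up 17.95% of the summed FPKM of the 4 H/ACA core genes in the MTR4-null nucleus, against 50.6% in the WT nucleus. The same share was 23.5% in the MTR4-null cytoplasm and 39.6% in the WT cytoplasm. The sum itself was 68.1 FPKM in the MTR4-null nucleus and 101 FPKM in the WT nucleus. In the box C/D class Nop56 over Fbl was 0.525 in the MTR4-null nucleus and 1.53 in the WT nucleus, with 0.879 in the MTR4-null cytoplasm and 2.15 in the WT cytoplasm. The summed box C/D core genes over the summed H/ACA core genes stood at 2.58 in the MTR4-null nucleus and 1.47 in the WT nucleus, but at 1.91 in the MTR4-null cytoplasm and 1.79 in the WT cytoplasm. The H/ACA sum holds Dkc1, so this ratio, the H/ACA shares and the ratios over Dkc1 are not independent. Between the nuclei the other H/ACA core genes did not fall together: Nhp2 and Gar1 were higher in MTR4-null and Nop10 lower.

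**Figure D2:**
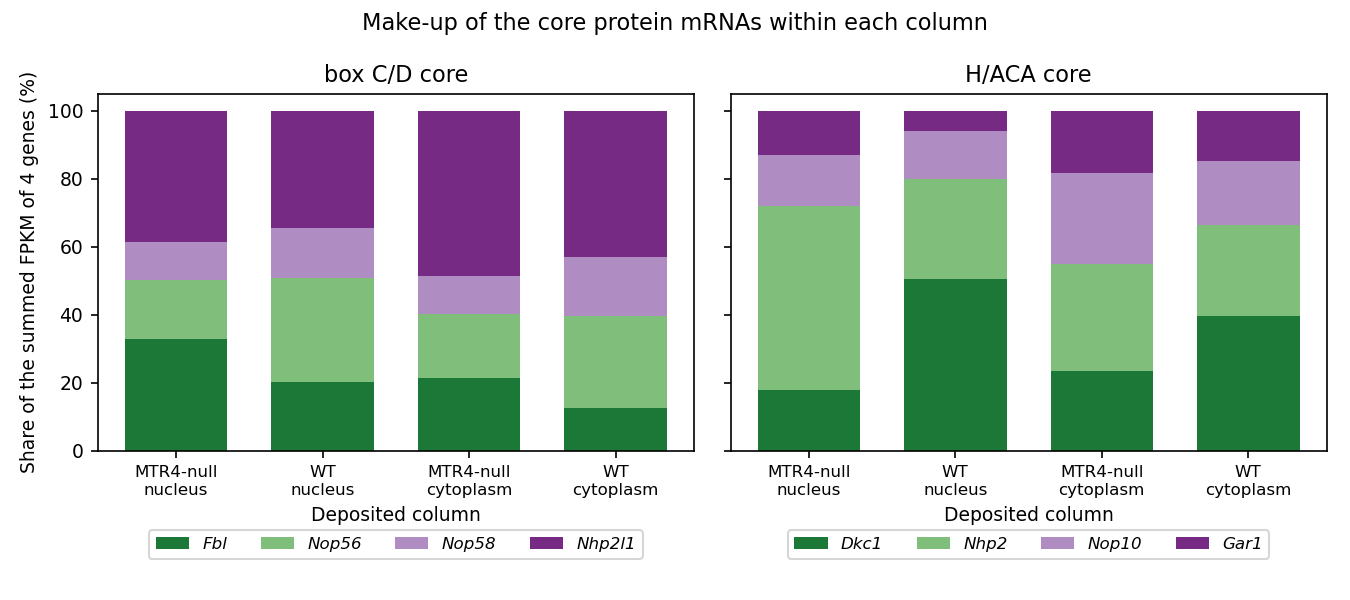
Stacked bars give the share (%) of each gene in the summed FPKM of the 4 core genes of its class, within each deposited column. The share of Dkc1 is 17.95% in the MTR4-null nucleus and 50.6% in the WT nucleus, and that of Fbl 32.9% in the MTR4-null nucleus and 20.1% in the WT nucleus.

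In the cytoplasm, with the columns as deposited, 4 of the 10 genes were lower by 2-fold or more, against 21.4% of all genes, and 0 were higher, against 15%. Over all genes centring turned the split to 3156 higher and 1108 lower, in place of 2135 and 3047. The 4 were Dkc1 (-1.35, at 37.9% of the WT FPKM), Nolc1 (-1.29, at 39.5%), Nop58 (-1.16, at 43.1%) and Nop56 (-1.04, at 47.6%). After centring, after rescaling without small RNA genes and after quantile normalization 0 of the 10 were 2-fold apart, though each of the 4 had a negative difference under every setting: Dkc1 at -0.77 or below, Nolc1 at -0.72 or below, Nop58 at -0.59 or below and Nop56 at -0.46 or below. Fbl was at 0.21 as deposited and between 0.21 and 0.79 over the settings. For Nhp2l1 (-0.37), Nhp2 (-0.40) and Nop10 (-0.12) each of these 3 scalings turned the sign, and for Gar1 (-0.32) and Naf1 (-0.22) centring and rescaling did, so no direction is given for those 5.

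The scaling matters here because the FPKM left after setting small RNA genes aside came to 264074 in the MTR4-null cytoplasm and 399676 in the WT cytoplasm, against 410095 in the MTR4-null nucleus and 361625 in the WT nucleus. The median of the 10 genes in the cytoplasm was -0.39, beside -0.26 over all genes. It turned to 0.17 after centring and 0.20 after rescaling, beside 0.09 and 0.11 over all genes. Of 12 oocyte markers 4 were lower by 2-fold or more in the MTR4-null cytoplasm as deposited, against 21.4% of all genes. None (0) was higher, against 15%, and the markers' median was -0.84. After centring 0 were lower, with a median of -0.27, after rescaling 0, with -0.25, and after quantile normalization 3, with -0.46. Under these 3 scalings 1108, 1071 and 2174 of all 14270 genes were lower. The part of the markers' shift in the values above was not tested. Within the list Dkc1 and Nolc1 were lowest, with 10.7% and 12.2% of all genes at a lower difference, and Fbl was highest, with 68.5% lower.

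**Figure D3:**
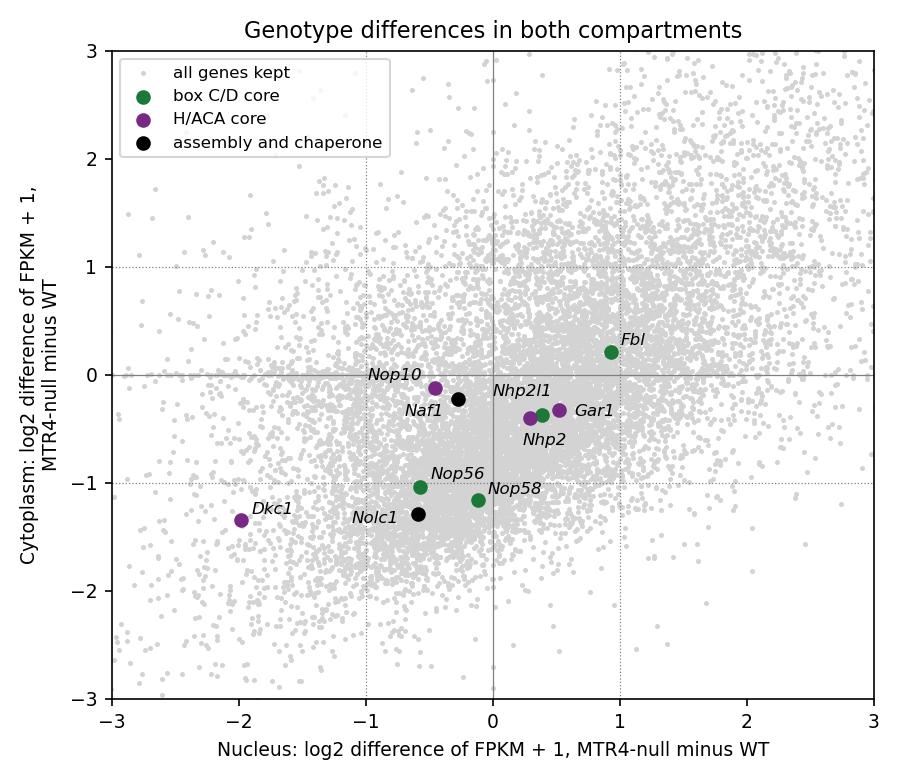
Each point is a gene: the horizontal axis is its nuclear and the vertical axis its cytoplasmic log2 difference of FPKM + 1, MTR4-null minus WT, with grey points for all 14270 genes, of which 593 lie outside the plotted range, and dotted lines at 2-fold. Dkc1 lies at -1.98 and -1.35, and Fbl at 0.93 and 0.21.

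The 4 genes lowest in the MTR4-null cytoplasm included the members most alike in their pattern over the 4 columns. After each gene's values of log2(FPKM + 1) were centred on their mean, the distance between Nop56 and Nolc1 was 0.23, that between Nop58 and Nolc1 0.34 and that between Nop56 and Nop58 0.35, the smallest of the member pairs. The largest was 2.44, between Fbl and Dkc1. These distances use the same columns as the cytoplasm calls, so the likeness of genes called there is not independent of the call. Outside the list, the genes closest to the members' median pattern were Commd1 (distance 0.04), Pou5f1 (0.06) and Inpp5a (0.07), but with only 4 columns 1729 of 10073 candidate genes lay within 0.5.

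The stretches of 250 bases before the annotated starts of these 3 genes and of Dkc1 are shown to set the genes that moved alike beside the one that moved most (RefSeq, GRCm38.p6, 5′ to 3′ on the strand of the gene). Capitals mark the GC box GGGCGG on either strand.
Nop56, chr2:130274162-130274411, plus strand: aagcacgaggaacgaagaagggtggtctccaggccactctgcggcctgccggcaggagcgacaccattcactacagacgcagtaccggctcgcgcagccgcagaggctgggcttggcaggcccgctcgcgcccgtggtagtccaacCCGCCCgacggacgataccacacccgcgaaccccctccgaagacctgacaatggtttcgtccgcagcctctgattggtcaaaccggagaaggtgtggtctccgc
Nop58, chr1:59684756-59685005, plus strand: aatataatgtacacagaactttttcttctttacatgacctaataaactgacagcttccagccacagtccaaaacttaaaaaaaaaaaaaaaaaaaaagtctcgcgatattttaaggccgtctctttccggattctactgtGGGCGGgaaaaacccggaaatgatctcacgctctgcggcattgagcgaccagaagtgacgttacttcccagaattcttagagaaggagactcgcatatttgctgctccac
Nolc1, chr19:46075597-46075846, plus strand: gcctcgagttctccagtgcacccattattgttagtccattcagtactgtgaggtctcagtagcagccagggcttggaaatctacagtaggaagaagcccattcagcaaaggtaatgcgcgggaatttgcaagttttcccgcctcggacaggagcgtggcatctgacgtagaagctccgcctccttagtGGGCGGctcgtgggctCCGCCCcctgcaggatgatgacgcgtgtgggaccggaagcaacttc
Dkc1, chrX:75095604-75095853, plus strand: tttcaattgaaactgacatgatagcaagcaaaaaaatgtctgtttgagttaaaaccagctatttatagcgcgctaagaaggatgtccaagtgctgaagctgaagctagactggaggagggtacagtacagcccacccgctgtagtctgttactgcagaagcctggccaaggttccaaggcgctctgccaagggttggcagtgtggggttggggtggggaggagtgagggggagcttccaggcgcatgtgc
Promoters of 8 of the 10 members were matched in the RefSeq table (Fbl and Naf1 were not). A GC box was found in 5 of the 8, and in 32.9% of 27025 promoters. The 5 were Nop56, Nop58, Nolc1, Nhp2 and Nhp2l1, and Dkc1, Nop10 and Gar1 had none. The nuclear differences of Nhp2 and Nhp2l1, 0.30 and 0.39, were positive, so the box was not particular to Nop56, Nop58 and Nolc1. The E-box CACGTG was found in 0 of the 8 and in 6.05% of all promoters. The CCAAT box, searched on both strands as well, was found in 2, Nop56 and Nhp2, and in 34.5% of all promoters, and 0 of its matches overlapped a GC box. These are matches of letters in a window.

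Nucleus and cytoplasm were then compared within each genotype. These comparisons use the same 4 columns as those above and are not independent of them. In WT, Gar1 was the 1 gene at least 2-fold lower in the nucleus, against 4.71% of all genes, at a log2 difference of -1.25, with 2.47% of all genes lower. None (0) was at least 2-fold higher, against 12.4%. The remaining WT differences ran from -0.63 (Nhp2l1) to 0.34 (Fbl), and the median of the 10 was -0.28 beside -0.04 over all genes.

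In MTR4-null oocytes Fbl was the 1 gene at least 2-fold higher in the nucleus, at 1.06, against 17% of all genes, and 0 were at least 2-fold lower, against 1.84%. Centring moved the split over all genes to 821 higher and 708 lower, in place of 2428 and 262. The median of the 10 genes was 0.22, beside 0.52 over all genes. Centring, rescaling and quantile normalization turned it to -0.41, -0.40 and -0.46, beside -0.01, 0 and -0.02 over all genes. Each left 0 of the 10 genes at least 2-fold higher. Read against the other genes, Nop10 (-0.76, 3.06% of genes lower), Gar1 (-0.41, 6.69%) and Dkc1 (-0.33, 7.97%) lay toward the cytoplasmic end in MTR4-null oocytes. Dkc1 was not so in WT, at 0.31 with 70.9% of genes lower.

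The difference between those compartment differences, MTR4-null minus WT, was past the 2-fold line upwards for 1 gene, Nop58 at 1.04, against 27% of all genes, and downwards for 0, against 10.7%. Centring moved the split over all genes to 1228 and 2557, in place of 3859 and 1521. The median of the 10 genes was 0.70, beside 0.57 over all genes, and turned to values between -0.09 and -0.05 under the 3 scalings. Over all genes it was -0.10 after centring, -0.09 after rescaling and 0.05 after quantile normalization. Dkc1 had the lowest value, -0.64, with 15.7% of all genes lower, and Nop10 the next, -0.34.

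**Figure D4:**
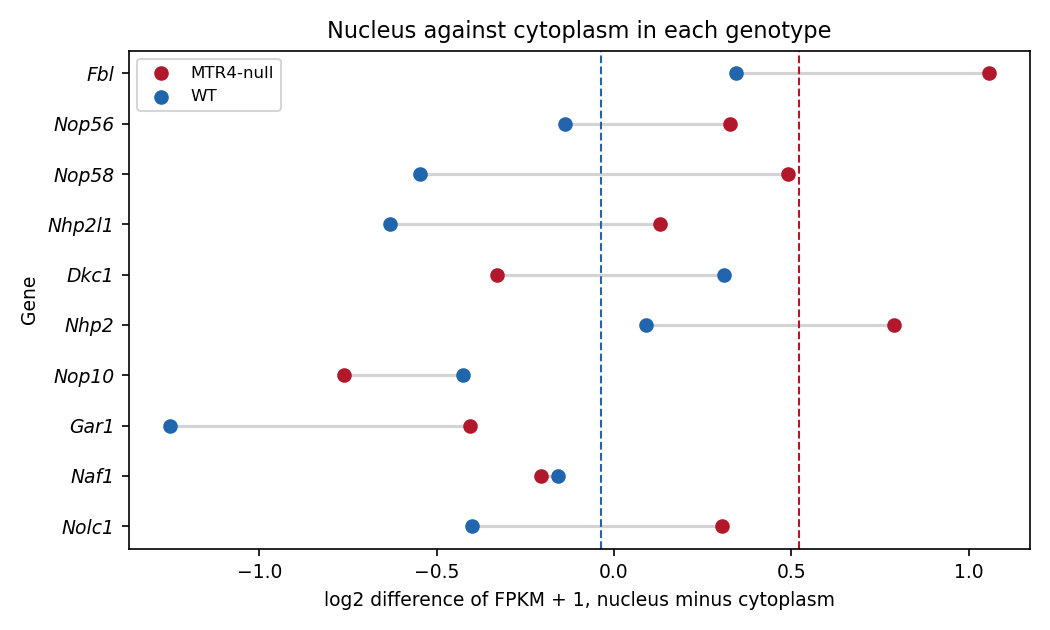
Points give the log2 difference of FPKM + 1, nucleus minus cytoplasm, of each gene in MTR4-null and in WT oocytes, and dashed lines the median of all 14270 genes in each genotype (0.52 and -0.04). Dkc1, Nop10 and Naf1 have a lower value in MTR4-null than in WT, and the other 7 genes a higher one as deposited; after centring or rescaling 2 genes have a higher value, and after quantile normalization 4.

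The factors that put snoRNPs together were followed in a list of 8 non-member genes: the R2TP machinery that loads box C/D and H/ACA proteins, the box C/D platform factors, and the dyskerin chaperone Shq1. In the nucleus of MTR4-null oocytes 3 of 8 were at least 2-fold higher and 0 lower, against 23.9% and 12.3% of all genes, with a median of 0.65 beside 0.21 over all genes. Ruvbl1, an ATPase of R2TP, was at 20.6 FPKM in the MTR4-null nucleus and 2.93 FPKM in the WT nucleus. Znhit3, a zinc finger protein of box C/D assembly, was at 28.5 and 6.74 FPKM in the same columns, and Nufip1, the platform protein of that step, at 21.02 and 6.75 FPKM. Ruvbl2, the ATPase that works in a ring with Ruvbl1, was at 44.3 FPKM in the MTR4-null nucleus and 71.3 FPKM in the WT nucleus, so the ring partners lay on opposite sides of 0. Shq1 was at 6.15 FPKM in the MTR4-null nucleus and 2.65 FPKM in the WT nucleus, at a log2 difference of 0.97. The count was 3 higher and 0 lower under each scaling, and 4 higher at a pseudocount of 0.1. Over all 14270 genes centring gave 2777 higher and 2146 lower in the nucleus, rescaling 2890 and 2085, and quantile normalization 2416 and 2517. A pseudocount of 0.1 gave 4147 and 2327.

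In the cytoplasm 1 of these 8 was at least 2-fold higher, Znhit3 at 19.6 FPKM in MTR4-null and 5.52 FPKM in WT, and 3 were lower as deposited, against 15% and 21.4% of all genes, with a median of -0.23. The lower ones were Rpap3, an R2TP adaptor, at 12.2 FPKM in MTR4-null and 33.5 FPKM in WT, Znhit6, a box C/D assembly factor, at 3.30 and 10.6 FPKM, and Ruvbl2 at 36.1 and 79.8 FPKM. After centring or rescaling 2 were higher and 0 lower, and the median turned to 0.27 and 0.29. Quantile normalization left 1 higher and 1 lower and a median of -0.12. Over all 14270 genes centring gave 3156 higher and 1108 lower in the cytoplasm, rescaling 3228 and 1071, and quantile normalization 2213 and 2174.

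A list of 8 genes for maturation and Cajal bodies held Tgs1, Phax, Xpo1, Coil, Smn1, Wrap53, Tert and Tcof1. In the MTR4-null nucleus 2 passed the 2-fold line upwards and 0 downwards, against 23.9% and 12.3% of all genes. The median of 0.21 was that of all genes. The share higher is near the background. Coil, the scaffold of Cajal bodies, was at 21.03 FPKM in the MTR4-null nucleus and 9.40 FPKM in the WT nucleus, and Phax, an export adaptor, at 33.9 and 15.5 FPKM. Both calls were lost after centring, rescaling or quantile normalization. In the cytoplasm Coil, at 17.0 FPKM in MTR4-null and 6.68 FPKM in WT, and the cap methylase gene Tgs1, at 4.73 and 1.47 FPKM, were at least 2-fold higher, and the exportin gene Xpo1, at 12.2 and 26.5 FPKM, was lower, against 15% and 21.4% of all genes (median -0.15). After centring or rescaling 3 were higher and 0 lower, and after quantile normalization 2 and 0. The list median turned to 0.40, 0.43 and 0.34 under these scalings. The counts over all genes in the cytoplasm are those given for the assembly list. Tert, the telomerase protein that works with an H/ACA RNA and dyskerin, was at 10.9 FPKM in the MTR4-null nucleus and 17.4 FPKM in the WT nucleus, and at 9.04 FPKM in the MTR4-null cytoplasm and 15.1 FPKM in the WT cytoplasm.

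Of 14 genes of the U3 snoRNP and the small subunit processome, where the box C/D RNA U3 acts on pre-ribosomal RNA, 1 was at least 2-fold higher and 1 lower in the MTR4-null nucleus, against 23.9% and 12.3% of all genes (median -0.17 beside 0.21). Utp11l was at 24.8 FPKM in the MTR4-null nucleus and 11.2 FPKM in the WT nucleus, and Mphosph10, a U3 protein, at 21.3 and 47.4 FPKM. In the cytoplasm 0 were higher and 3 lower, against 15% and 21.4% of all genes, so that the share lower was that of the background (median -0.72 beside -0.26 over all genes). These were Mphosph10 at 11.7 FPKM in MTR4-null and 51.3 FPKM in WT, Wdr43 at 15.6 and 39.9 FPKM, and Dcaf13 at 22.8 and 53.4 FPKM. Centring, rescaling and quantile normalization each gave 0 higher and 2 lower in the nucleus, and 1 lower with a negative median in the cytoplasm. The counts over all genes under these scalings are those given for the assembly list. As deposited, all 14 had a negative cytoplasmic difference, as did 8544 of all 14270 genes. Centring left 10 of the 14 negative, rescaling 9 and quantile normalization 11.

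**Figure D5:**
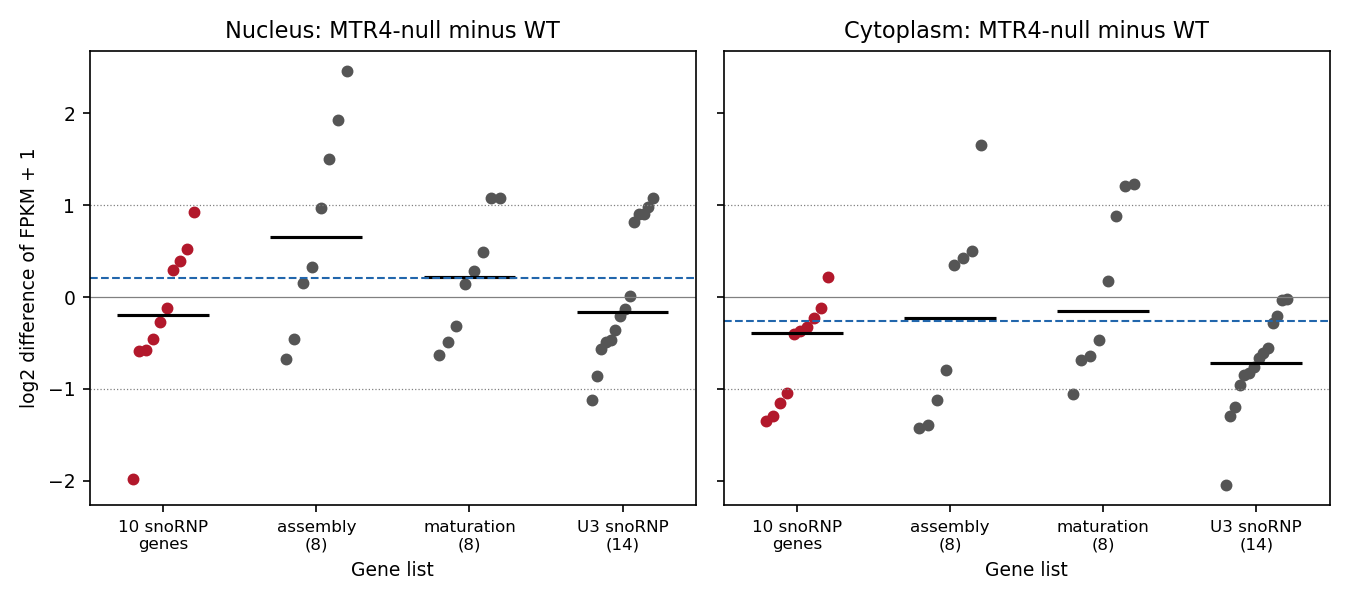
Points are genes and black bars list medians of the log2 difference of FPKM + 1, MTR4-null minus WT, in the nucleus (left) and cytoplasm (right); the dashed line is the median of all genes (0.21 and -0.26) and dotted lines mark 2-fold. Dkc1 is the lowest point of the left panel at -1.98, and Ruvbl1 the highest at 2.46.

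Several measurements stand beside these results. The targeted gene, listed under its older symbol Skiv2l2, was at 2.91 FPKM in the MTR4-null nucleus and 16.2 FPKM in the WT nucleus, and at 2.51 FPKM in the MTR4-null cytoplasm and 21.6 FPKM in the WT cytoplasm. All 12 oocyte markers were above 23 FPKM in each column. The 10 granulosa cell markers summed to 52.4 FPKM in the MTR4-null nucleus, 65.2 FPKM in the WT nucleus, 42.5 FPKM in the MTR4-null cytoplasm and 51.7 FPKM in the WT cytoplasm. Of the 9 that passed the filter, 3 were at least 2-fold higher and 1 lower in the MTR4-null nucleus, against 23.9% and 12.3% of all genes. In the cytoplasm 0 were apart, against 15% higher and 21.4% lower of all genes. Between the nuclei 7 of the 9 had a positive difference, and the median was 0.55. The higher ones were Hsd17b1, Kitl and Amh. Their values were 6.15, 4.14 and 1.44 FPKM in the MTR4-null nucleus, against 0.424, 0.336 and 0 FPKM in the WT nucleus. Cyp11a1, a steroid-making enzyme, was the lower one, at 1.47 FPKM in the MTR4-null nucleus and 21.3 FPKM in the WT nucleus. Inha was at 11.9 FPKM in the MTR4-null nucleus and 21.4 FPKM in the WT nucleus, and Nr5a2 at 18.3 and 16.99 FPKM; with Cyp11a1 they made up most of the WT nucleus sum. Fshr stayed below 0.5 FPKM throughout. Markers of theca and blood cells summed to at most 3.61 and 0.738 FPKM. The part of surrounding cells in the results on snoRNP genes was not tested.

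Differences also moved with base composition. When coding genes were ranked by coding GC content and cut into 5 groups, the median nuclear difference was -0.10 in group 1, of lowest GC, and 0.69 in group 5, and in the cytoplasm -0.60 and 0.12. Dkc1 (45.2% GC) and Nop58 (40.8%) were in group 1 and Fbl (57.5%) in group 4, whose nuclear median was 0.36. Nop56 and Nop10 were in group 2, Nhp2l1 and Nolc1 in group 3, and Nhp2, Gar1 and Naf1 in group 4. As deposited, nuclear differences were negative for all members of groups 1 and 2 and for Nolc1 and Naf1. They were positive for the other members of groups 3 and 4. The nuclear difference of Dkc1 was -1.98, beside the median of -0.10 in group 1. The part of base composition was not tested. Opposite-strand genes overlap 3 members in the annotation, and the sources used here do not say whether reads were counted by strand, so overlapping pairs cannot be told apart. Mpp1, which overlaps Dkc1, was at 0.981 FPKM in the MTR4-null nucleus and 4.65 FPKM in the WT nucleus. Idh3b, which overlaps Nop56, was at 10.1 and 3.88 FPKM, and Rmnd5b, which overlaps Nhp2, at 18.8 and 8.004 FPKM. Other annotated genes matched at least 50% of the coding length at 90% identity or more for Nhp2l1 (9 genes), Fbl (2), and Nhp2, Nop10, Gar1 and Naf1 (1 each), so that values of these 6 are uncertain where reads could be split; 0 such genes were found for Dkc1, Nop56, Nop58 and Nolc1.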

How the data were processed

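Values are FPKM as the authors deposited them, with 1 column per group; columns were matched to groups by name, and the number of libraries averaged into each is uncertain. Per the labels' protocols, rRNA was depleted and cDNA of 300 to 400 bp was read as 150 bp pairs. TopHat2 2.1.1, Cufflinks 2.2.1 and mm9 appear in the submitters' processing notes, without settings. The unnamed last row, the sum of the others, was left out. Read depth is unknown. From the values, differences of log2(FPKM + 1) were computed with pandas 2.3.3 and NumPy 2.4.6 for 4 pairs of columns and the difference of compartment differences, and genes were counted as apart at 2-fold among the 14270 genes at 1 FPKM or more in at least 1 column. The counting was tested on simulated data. Near-identical copies were sought with BLAST 2.17.0. The 5 alternatives were a pseudocount of 0.1, no filter, centring by the median log ratio, rescaling without small RNA genes, and quantile normalization. A planned linear model needed single libraries and was not run. All members were named, other genes by list, and the 3 most alike by distance over the columns among genes at 5 FPKM or more; members and lists were chosen with earlier results of these data known, and the promoter motifs and genes shown with sequence after their values were seen.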

Additional observations from a re-analysis of the deposited data

How the results depend on the processing

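No paired analysis was possible because each column holds a whole group, and leaving out replicates was not run for the same reason. Omitting the filter changed no value of the 10 genes. A pseudocount of 0.1 moved the members' median to -0.24 in the nucleus, -0.40 in the cytoplasm, -0.30 between the WT compartments and 0.72 for the difference of compartment differences, and changed no count. Centring gave medians of -0.37 in the nucleus, 0.17 in the cytoplasm, -0.16 between the WT compartments, -0.41 between the MTR4-null compartments and -0.057 for the difference of differences; rescaling without small RNA genes gave -0.35, 0.20, -0.15, -0.40 and -0.048 in the same order, and quantile normalization -0.54, -0.20, -0.31, -0.46 and -0.088. Under each of these 3 scalings 0 members were at least 2-fold lower in the cytoplasm without MTR4, 0 were at least 2-fold higher between the MTR4-null compartments and 0 for the difference of differences, while 2 were at least 2-fold lower for that difference. Between the MTR4-null compartments 2 members were then at least 2-fold lower in the nucleus with centring, 1 with rescaling and 3 with quantile normalization. In the same order, 708, 694 and 711 of all 14270 genes were lower in that comparison, and 821, 855 and 768 higher. For the difference of differences 2557, 2559 and 1871 genes were lower, and 1228, 1251 and 1798 higher. In the cytoplasm without MTR4 1108, 1071 and 2174 genes were lower. Why the members' counts moved was not tested. Over all genes a pseudocount of 0.1 gave 2687 higher and 1367 lower between the WT compartments (1775 and 672 as deposited), and quantile normalization 1307 and 1117. The call of Dkc1 in the nucleus and that of Gar1 between the WT compartments are counts of 1 that stayed at 1 throughout. Depth is unknown, so precision cannot be stated.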

Other observations

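Relatives of the core proteins were measured too. The fibrillarin relative Fbll1 was listed at 0 FPKM in all 4 columns. Of the 6 other relatives, 0 were at least 2-fold apart between the nuclei, against 23.9% higher and 12.3% lower of all genes. As deposited, 1 was lower by 2-fold or more in the MTR4-null cytoplasm and 0 were higher, against 21.4% and 15% of all genes. The share lower was near the background. After centring 2 of these 6 were higher and 1 lower, beside 3156 higher and 1108 lower of all 14270 genes. The lower one was Rpp38, a protein of RNase P and RNase MRP from the same family as Nhp2l1 and Nhp2, at 6.31 FPKM in the MTR4-null cytoplasm and 26.2 FPKM in the WT cytoplasm. The ribosomal protein gene Rpl7a, of that family as well, was at 213 FPKM in the MTR4-null cytoplasm and 350.5 FPKM in the WT cytoplasm. Prpf31, a spliceosome protein with a domain shared with Nop56 and Nop58, was at 9.24 FPKM in the MTR4-null cytoplasm and 17.3 FPKM in the WT cytoplasm. Between the nuclei Rpp38 was at 15.9 FPKM in MTR4-null and 23.2 FPKM in WT, and Prpf31 at 10.3 and 15.1 FPKM. Rpl7a was higher there in MTR4-null, at 321 FPKM against 223 FPKM in WT. The pseudouridine synthase genes Trub1 and Trub2, relatives of Dkc1, were at 4.16 and 11.6 FPKM in the MTR4-null nucleus, against 3.51 and 5.58 FPKM in the WT nucleus. They were at 2.70 and 8.40 FPKM in the MTR4-null cytoplasm, against 0.870 and 4.52 FPKM in the WT cytoplasm.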
